A study of Homo sapiens with 74 samples.

Results

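Olfactory receptor clusters were described as 5 windows of the human genome in the build hg19, and every accessible region of the deposited knockout table whose midpoint fell in a window was taken. Of 145536 regions, 322 did so, and the same 322 stood in the knockdown table. The windows were chr1:247500000-249100000 (68 regions, called the chromosome 1 array here), chr11:48200000-51600000 (23 regions, the pericentromeric array), chr11:54700000-59300000 (160 regions, the long-arm array), chr11:123500000-124500000 (57 regions, the distal array) and chr14:20100000-20800000 (14 regions, the chromosome 14 array). Within the windows a region was taken by its position alone. No annotation of hg19 was used here, so regions are named by their coordinates as the files give them and are not assigned to genes.

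Olfactory receptors are G protein-coupled receptors of the sensory neurons of the nose and form the largest gene family of mammals. Their genes lie in tandem arrays, and each sensory neuron expresses a single receptor from this repertoire. In other cell types the arrays are silent and packed in heterochromatin that carries trimethylated lysine 9 of histone H3. RefSeq on the later build GRCh38.p14 lists 392 protein-coding genes with an olfactory receptor symbol, of which 171 are on chromosome 11, 61 on chromosome 1 and 24 on chromosome 14. The windows also span genes of other families, and how many of the regions lie at a receptor gene was not measured.

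The assay was ATAC-seq, whose transposase inserts where DNA is open, and the cells were HAP1, a near-haploid human line derived from a chronic myeloid leukaemia. BAF (SWI/SNF) complexes move nucleosomes with the energy of ATP. SMARCA4 and SMARCA2 are their alternative ATPases, SMARCC1, SMARCC2 and SMARCD1 to SMARCD3 are scaffold subunits, ARID1A, ARID1B and DPF2 belong to the canonical form, ARID2, PBRM1, BRD7 and PHF10 to the PBAF form, and BRD9 to the non-canonical form. The knockout table covers 22 knocked-out genes in 26 HAP1 clones, each with 2 libraries, beside 4 libraries of wild-type HAP1. SMARCA4 (clones 4 and 6), ARID1A (clones 3 and 10), ARID1B (clones 5 and 7) and BCL7B (clones 8 and 10) had a pair of clones, and for the other 18 genes, with 1 clone each, loss of the gene and other changes of the clone cannot be told apart. The knockdown table held 8 groups of 2 libraries. They were knockdowns of SMARCA4, of ARID2 and of both beside a control knockdown in wild-type cells, ARID2 knockdown beside its control in SMARCA4 knockout cells, and SMARCA4 knockdown beside its control in ARID2 knockout cells. The labels name no clone for the knockout cells of the knockdown table. By the form of the titles, clone 5 of ARID1B, clone 10 of BCL7B and the SMARCC2 clone belong with wild-type replicates 5 and 6 (set 2) and the other clones with wild-type replicates 1 and 2 (set 1), and a clone's reference was always the wild type of the same set. The tables carry no gene names, so the loss of the targeted genes was not checked here.

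Libraries of set 1 held 7855389 to 12422345 counts in all, those of set 2 held 5085811 to 7331537, and knockdown libraries 5355899 to 12432292. The 322 regions held 0.191% to 0.222% of the counts of a knockout-table library and 0.178% to 0.223% of those of a knockdown-table library, against 0.221% of all regions. The median region of the arrays had 19 to 37 reads in a knockout-table library and 14 to 30 in a knockdown-table library. Values are CPM, which are read counts relative to library size after its scaling by TMM, and changes are log2 fold changes from edgeR. Their standard error (SE) was derived from its test, as the absolute change divided by the square root of the F value. A region is said to be called where the Benjamini-Hochberg adjusted p over all regions tested was under 0.05. Regions named for the largest changes were picked only among calls whose groups did not overlap. Lack of overlap in them follows from this naming rule and adds no support. The labels do not say whether replicates were separate cultures, and p-values therefore cover the spread between these libraries only.

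The arrays held fewer accessible regions than the genome as a whole. Their density was 28.5 regions per Mb against 48.5 over the whole table, and regions covered 1.83% of the windows against 3.45%. The pericentromeric array was the sparsest, with 6.76 regions per Mb, followed by the chromosome 14 array with 20, the long-arm array with 34.8, the chromosome 1 array with 42.5 and the distal array with 57.0. In the pericentromeric array 24 of 34 bins of 100 kb held no region. Its last region ended at 50017524, and the rest of the window, up to 51600000, held none. Between neighbouring regions its longest empty stretch ran for 799029 bp from 48413338 to 49212367. In the chromosome 14 array 3 of 7 bins were empty, in the long-arm array 10 of 46, and in the chromosome 1 and distal arrays 0 of 16 and 0 of 10. By region density 4 windows lay below the genome, the chromosome 1 window only slightly, and the distal window lay above it. How well reads can be placed in the windows was not measured, so an empty stretch is not shown to be closed.

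The accessible regions of the arrays were mostly weak. The median region had 2.89 CPM over all knockout-table libraries, against 3.41 CPM for all regions, and the medians of the windows were 2.12 CPM (pericentromeric), 2.52 (chromosome 1), 2.68 (distal), 2.70 (chromosome 14) and 3.79 (long arm). Above the median of all regions lay 132 of 322 (41.0%). With all regions cut into 4 accessibility classes of equal size, 76 array regions (23.6%) lay in the highest class. The long-arm array was uneven. Its dense Mb, from 56700000 to 57700000, held 78 regions with a median of 6.34 CPM, and 39 of them were in the highest accessibility class, whereas the Mb before it held 10 regions with a median of 1.79 CPM and none in that class. Outside that dense Mb the arrays held 244 regions, or 23.7 per Mb, with a median of 2.69 CPM, 80 (32.8%) above the median of all regions and 37 (15.2%) in the highest accessibility class.

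**Figure D1:**
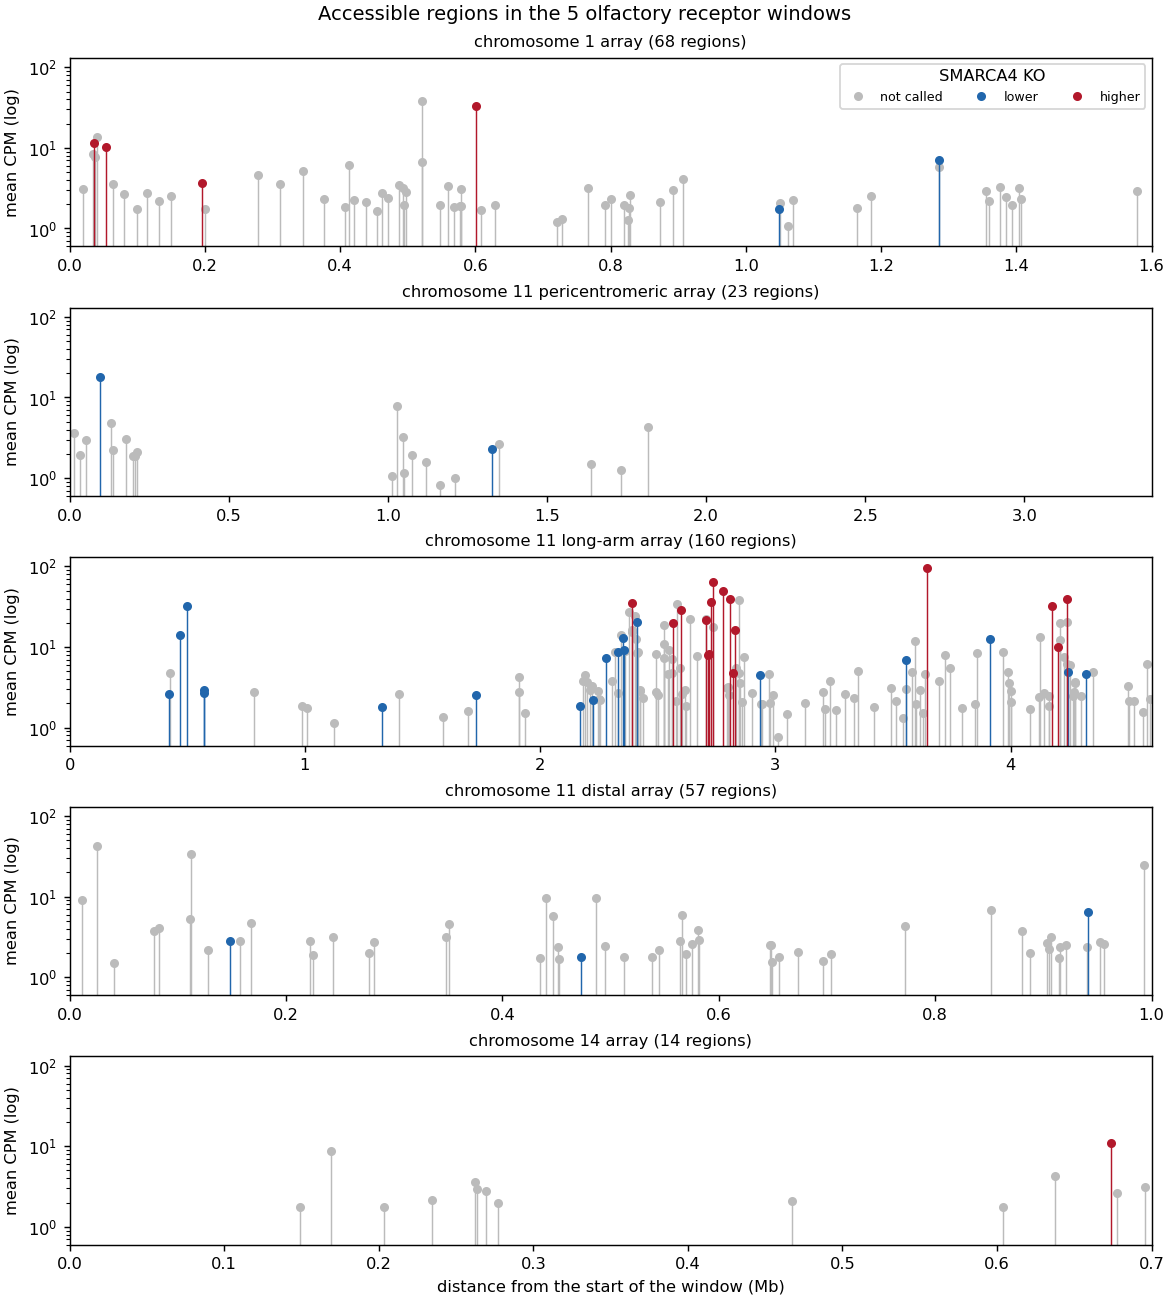
Mean CPM over the knockout-table libraries (log axis) of each accessible region against its distance in Mb from the start of its window, 1 panel per window. Colours give the call in the SMARCA4 knockout. The pericentromeric panel is nearly empty, and the dense Mb of the long-arm panel carries 78 regions and most of the higher calls, which depended on wild-type replicate 2 and on the scale.

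A few regions were strongly accessible. In the long-arm array chr11:58345466-58347598 had a mean of 96.2 CPM and chr11:57434997-57436151 had 64.3 CPM. In the distal array chr11:123524325-123525744 had 43.0 CPM and chr11:123611819-123612717 had 33.6 CPM, and in the chromosome 1 array chr1:248020150-248021210 had 38.3 CPM and chr1:248100143-248100732 had 33.0 CPM. The pericentromeric array reached 18.1 CPM at chr11:48293985-48295224 and 7.77 CPM at chr11:49229436-49230381, and the chromosome 14 array 10.9 CPM at chr14:20773590-20774466 and 8.85 CPM at chr14:20267996-20269746. Both distal regions, chr1:248020150-248021210, chr11:49229436-49230381 and chr14:20267996-20269746 were called in neither the SMARCA4 nor the ARID1A knockout.

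Loss of SMARCA4, an ATPase of the complexes, gave more calls in the arrays than any other knockout. In the SMARCA4 knockout 47 of 322 regions (14.6%) were called, against 21.9% of all regions. Of these, 26 (8.07%) were lower, against 13.9% of all regions, and 21 (6.52%) were higher, against 8.0%. The median log2 fold change was -0.01 over the arrays and 0.01 over all regions. Alone, clone 4 had 35 calls (22 lower, 13 higher), against 17.5% of all regions, and clone 6 had 31 (17 lower, 14 higher), against 15.8%. On the authors' normalized values the median of all regions was 0.34 higher on the log2 scale in the knockout. There 23.9% of all regions were called, 8380 lower and 26377 higher. Relative to each library's median 19.3% of all regions were called, 20612 lower and 7511 higher. The split by direction in the arrays moved with the scale too. With the authors' values 60 (18.6%) were called, 11 lower and 49 higher, and relative to the medians 44 (13.7%), 34 lower and 10 higher. It also rested on single libraries, since 20 regions were called without wild-type replicate 2, 19 lower and 1 higher, and 31 without replicate 2 of clone 6, 19 lower and 12 higher. Over all regions fewer calls were made in both of these refits too, with the larger loss among the higher calls. With all wild type pooled 78 were called (24.2%), against 34.7% of all regions.

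By accessibility class, the shares stood apart most in the middle. In the class next to the lowest 7.37% of the 95 array regions were called in the SMARCA4 knockout, against 12.9% of all regions, and in the class above that 10.7% of 56, against 28.0%. In the lowest class the shares were 4.21% of 95 and 5.44%, and in the highest accessibility class 39.5% of 76 and 41.2%. Of the 30 array regions called in the highest accessibility class, 19 were higher (25.0% of the class, against 19.8% of all regions in it) and 11 lower (14.5%, against 21.4%), and of all 21 higher calls 1 was made without wild-type replicate 2. The shares were not tested against each other. Outside the dense Mb of the long arm 27 of 244 regions (11.1%) were called, 18 lower and 9 higher.

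**Figure D2:**
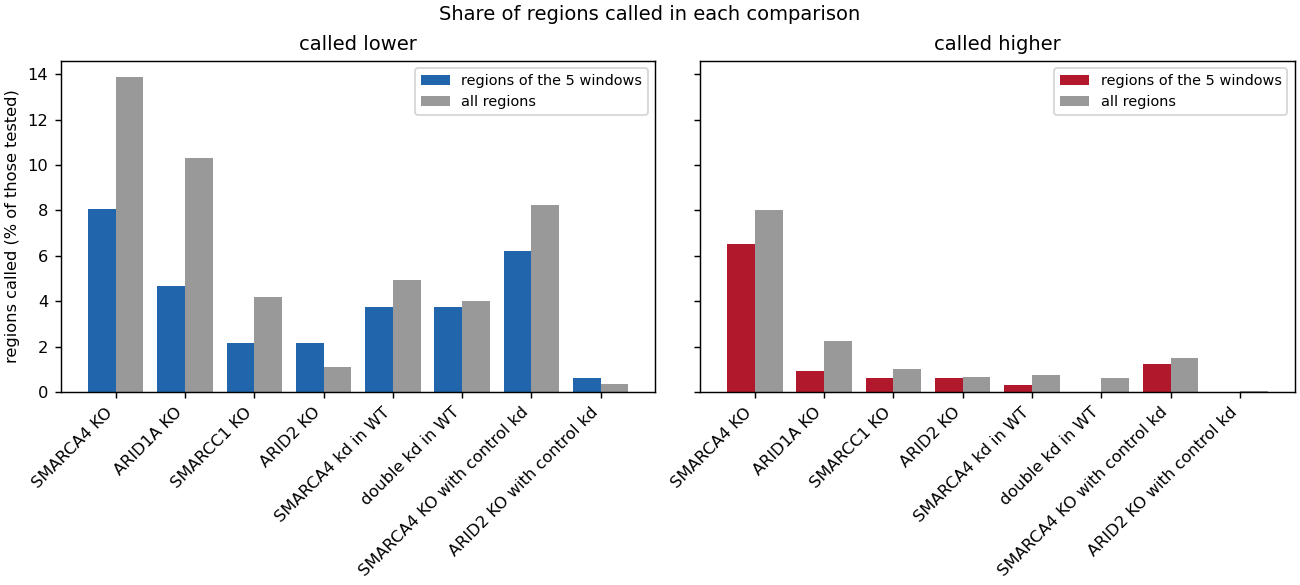
Percent of the tested regions called lower (left) and higher (right) in 8 comparisons, for the regions of the 5 windows (coloured bars) beside all regions (grey bars). In the SMARCA4 knockout 8.07% of the array regions were lower against 13.9% of all regions. On the authors' normalized values the split of the array calls was 11 lower and 49 higher, and that of all regions 8380 lower and 26377 higher.

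The region with the largest change in the arrays was chr11:55198484-55199439, which was nearly closed without SMARCA4. It had 3.22 and 2.00 CPM in the libraries of SMARCA4 clone 4 and 1.91 and 1.99 CPM in those of clone 6, against 48.0 and 30.8 CPM in wild type of set 1. All 4 knockout libraries lay far below both wild-type libraries, and the log2 fold change of -4.13 (SE 0.20, adjusted p = 1.1e-42) was the 4th lowest of all 145532 regions tested. In the ARID1A knockout the region had 13.6 and 13.6 CPM (clone 10) and 10.1 and 9.84 CPM (clone 3), with a log2 change of -1.76 (SE 0.17, adjusted p = 3.1e-17) against the same wild-type libraries. Its 4 ARID1A libraries lay between those of SMARCA4 and wild type without overlap, and the SMARCA4 knockout differed from the ARID1A knockout by a log2 change of -2.37 (SE 0.20, adjusted p = 7.2e-21). No other knockout was called there. Without any 1 library its fold changes ranged from -4.41 to -3.77 (SMARCA4) and from -2.04 to -1.40 (ARID1A), and both calls held in every such refit.

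**Figure D3:**
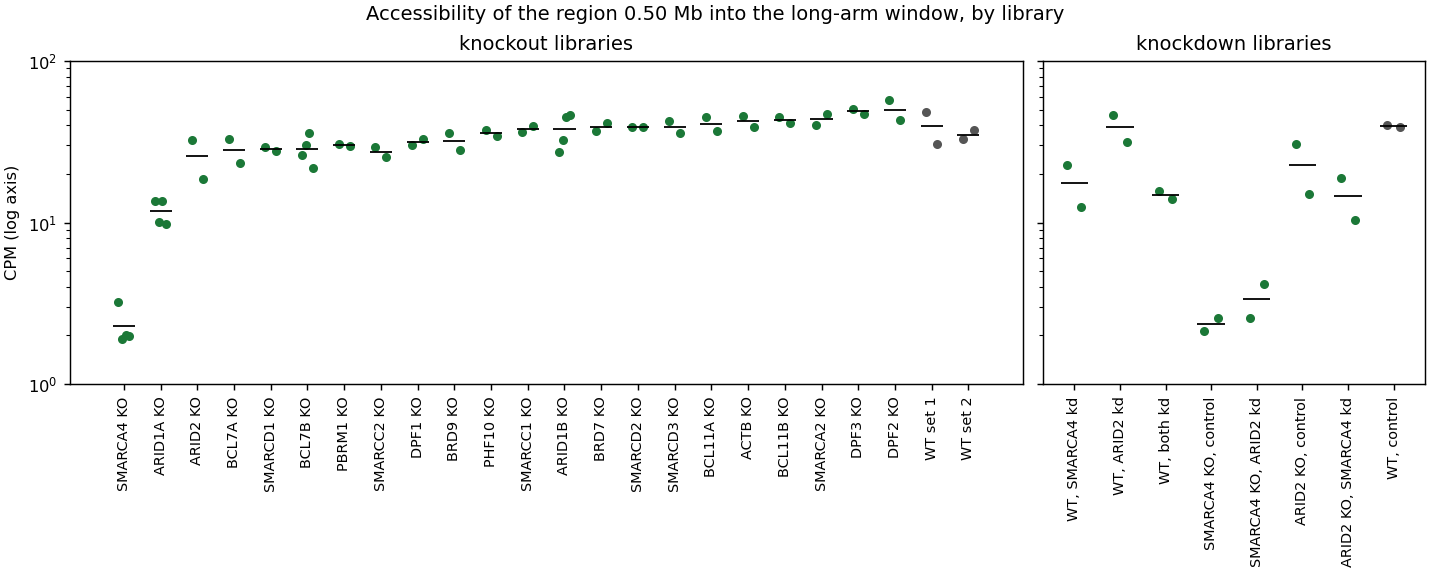
CPM (log axis) of the most strongly reduced array region in every library, by knocked-out gene (left) and by knockdown group (right). Points are libraries and lines are group means. The SMARCA4 knockout libraries sit between 1.91 and 3.22 CPM, below all others in the left panel, and the ARID1A libraries between 9.84 and 13.6 CPM.

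Neighbours of this region in the first Mb of the long-arm array were lower too. Of the 8 regions of that Mb 5 were lower, against 13.9% of all regions, none was higher, and the median log2 fold change was -1.14. The 4 neighbouring regions from 55167974 to 55271480, over 103506 bp, were all lower in the mean of the clones and in clone 4 alone. In clone 6 alone, and in the SMARCA4 knockout with control knockdown, 2 neighbours from 55167974 to 55199439 were called lower. This stretch was chosen after its values were seen. The neighbour chr11:55167974-55169349 had 3.10 and 3.00 CPM in clone 4 and 3.14 and 3.31 CPM in clone 6 of the SMARCA4 knockout, against 14.3 and 14.9 CPM in wild type, with a log2 change of -2.21 (SE 0.21, adjusted p = 5.9e-17). The groups did not overlap, and the knockout libraries lay close together. In the ARID1A knockout this neighbour had 10.5, 11.1, 10.7 and 9.73 CPM and was not called (-0.47, adjusted p = 0.091). Further out on the same side chr11:55121131-55121710 had 0.496 and 0.556 CPM in clone 4 and 0.561 and 1.88 CPM in clone 6, against 2.91 and 2.39 CPM in wild type (-1.71, SE 0.43, adjusted p = 0.0011), and its call was lost on the authors' normalized values (-0.66).

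Regions lower in the SMARCA4 knockout also stood in the rest of the long-arm array. At chr11:58611738-58613209 the knockout libraries had 2.73, 2.34, 4.71 and 2.54 CPM, against 12.2 and 8.96 CPM in wild type, with a log2 change of -1.81 (SE 0.23, adjusted p = 7.2e-11). At chr11:57030520-57031383 they had 2.48, 3.56, 2.81 and 2.32 CPM against 8.83 and 7.53 CPM (-1.55, SE 0.25, adjusted p = 9.8e-08). At chr11:58253551-58254304 they had 1.86, 2.34, 2.36 and 2.32 CPM against 5.63 and 6.93 CPM (-1.49, SE 0.27, adjusted p = 3.6e-06). In all 3 the groups did not overlap, as the naming rule requires, and the calls held without any 1 library. Of the 26 lower regions 9 were called in every refit that left out 1 library and 26 with DESeq2, and 14 were called without wild-type replicate 1.

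Outside the long arm the lower regions of the SMARCA4 knockout were few. In the pericentromeric array its most accessible region chr11:48293985-48295224 had 7.56, 9.01, 8.53 and 7.83 CPM, against 17.0 and 15.2 CPM in wild type, with a log2 change of -0.97 (SE 0.19, adjusted p = 3.5e-05). The weak region chr11:49526650-49527182 had 1.36, 0.667, 0.337 and 0.441 CPM against 2.52 and 1.67 CPM (-1.74, SE 0.50, adjusted p = 0.0049), and was not called without wild-type replicate 1 (-1.40) or on the authors' values (-0.45). On chromosome 1 chr1:248548841-248549342 had 0.744, 0.556, 1.23 and 0.772 CPM against 2.91 and 1.43 CPM (-1.44, SE 0.49, adjusted p = 0.022). These groups did not overlap, but the chromosome 1 call was lost without wild-type replicate 1 (-0.82), replicate 2 of clone 4 (-1.34) or replicate 2 of clone 6 (-1.29), and on the authors' values (-0.35).

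The regions higher in the SMARCA4 knockout were mostly already open and rose by less than the lower ones fell. Their log2 fold changes ranged from 0.39 to 0.95. The largest was at chr11:57417143-57417843, with 10.3 and 17.6 CPM in clone 4 and 10.9 and 17.4 CPM in clone 6, against 7.08 and 7.53 CPM in wild type (0.95, SE 0.24, adjusted p = 0.0013). The knockout libraries lay above both wild-type libraries, and the call held without any 1 library but not relative to the library medians of the authors' values (0.33). It was the only one of the 21 higher regions called in every such refit, and 1 of 21 was called without wild-type replicate 2.

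Neighbouring regions of the dense Mb were higher together in the mean of the clones. The 4 neighbours from 57406622 to 57425377 (18755 bp) and 3 from 57508563 to 57529573 (21010 bp) were called higher. Clone 4 alone had the second run but not the first. Clone 6 alone had 2 neighbours of the first, from 57417143 to 57425377, and not the second. Of all regions 8.0% were called higher, and 19.8% of those in the highest accessibility class. In the first run chr11:57412167-57412745 had 11.2, 10.6, 10.3 and 10.3 CPM in the SMARCA4 knockout against 7.57 and 6.33 CPM in wild type (0.60, SE 0.23, adjusted p = 0.043), but no refit without 1 library called it, and its direction turned relative to the library medians (-0.02). In the second run chr11:57519019-57519710 had 7.44, 7.56, 4.94 and 6.95 CPM against 3.30 and 4.06 CPM (0.87, SE 0.30, adjusted p = 0.022), lost without wild-type replicate 1 (0.72), wild-type replicate 2 (1.01) or replicate 2 of clone 6 (0.73). The groups did not overlap in either region. These runs were chosen after their values were seen.

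Other higher regions carried the same dependence. At chr1:248100143-248100732 the SMARCA4 knockout libraries had 39.7, 43.4, 38.3 and 43.9 CPM, against 30.7 and 18.5 CPM in wild type (0.74, SE 0.17, adjusted p = 0.00034), but the value was 0.43 without wild-type replicate 2, where it was not called, and -0.22 relative to the library medians. At chr11:58938836-58939870 they had 52.3, 49.2, 49.0 and 53.0 CPM against 35.4 and 29.4 CPM (0.65, SE 0.15, adjusted p = 0.00059), with 0.52 and no call without wild-type replicate 2 and a value under 0 relative to the medians. The regions chr1:247695103-247695784 (0.83) and chr1:247553255-247553909 (0.70) were called in 2 and 3 of 6 refits without 1 library, the losses including wild-type replicate 2 (1.14 and 0.50), wild-type replicate 1 for the first (0.55), replicate 1 of clone 4 (0.75) and replicate 2 of clone 6 (0.74) for the first, and replicate 2 of clone 4 (0.55) and of clone 6 (0.60) for the second.

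In the ARID1A knockout most called regions of the arrays were lower. Of 322 regions 18 (5.59%) were called, against 12.6% of all regions, with 15 lower (10.3% of all regions) and 3 higher (2.27% of all regions). Clone 3 alone had 14 calls, against 9.68% of all regions, and clone 10 had 13, against 8.26%. The median log2 fold change was 0.09 over the arrays and 0.02 over all regions. On the authors' normalized values the median of all regions was 0.22 higher in the knockout. There 36 array regions (11.2%) were called, 9 lower and 27 higher, against 15.1% of all regions, 7815 lower and 14170 higher. Relative to the library medians 32 (9.94%) were called, 25 lower and 7 higher, against 13.7% of all regions, 15169 lower and 4818 higher. With all wild type pooled 40 were called (12.4%), against 23.0% of all regions. In the highest accessibility class 10.5% of the 76 array regions were called against 23.8% of all regions.

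After chr11:55198484-55199439, the largest falls without ARID1A were spread over the windows. At chr14:20737262-20737944 the ARID1A libraries had 0.894 and 1.99 CPM (clone 10) and 1.10 and 1.55 CPM (clone 3), against 4.46 and 4.06 CPM in wild type (-1.61, SE 0.33, adjusted p = 7.6e-05). At chr11:57545419-57546541 they had 16.3, 15.5, 14.4 and 16.7 CPM against 43.6 and 36.8 CPM (-1.35, SE 0.17, adjusted p = 4.7e-11). The groups did not overlap in either region and both calls held without any 1 library. The SMARCA4 knockout was not called at them: chr11:57545419-57546541 had 45.6, 58.6, 43.5 and 63.8 CPM there (0.39, adjusted p = 0.075), and chr14:20737262-20737944 had 3.72, 2.89, 2.58 and 3.86 CPM (-0.39, adjusted p = 0.39).

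Other lower regions held in the ARID1A knockout too. At chr11:58253551-58254304 the libraries had 3.35, 2.83, 1.71 and 2.32 CPM against 5.63 and 6.93 CPM in wild type (-1.32, SE 0.27, adjusted p = 6.2e-05). At chr1:247539850-247540484 they had 4.58, 3.98, 5.00 and 5.97 CPM against 12.4 and 9.56 CPM (-1.19, SE 0.22, adjusted p = 9.8e-06). At chr11:123648284-123648801 they had 0.559, 0.419, 1.46 and 1.77 CPM against 2.52 and 2.75 CPM (-1.55, SE 0.42, adjusted p = 0.0045), a call that was lost on the authors' values (-0.92). In each the ARID1A libraries lay below both wild-type libraries, as the naming rule requires. Of the 15 lower regions 6 were called in every refit without 1 library, and 8 were called without wild-type replicate 1. The other named falls, chr11:55269495-55270148 (-1.20, lost without wild-type replicate 2 at -0.94 or replicate 2 of clone 3 at -1.09) and chr11:58942515-58943040 (-1.14, lost without wild-type replicate 1 at -0.80), rested on fewer libraries.

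The 3 higher regions of the ARID1A knockout rested on single libraries. At chr11:123724858-123725359 the libraries had 2.46, 2.72, 2.81 and 2.54 CPM, against 0.873 and 0.598 CPM in wild type (1.80, SE 0.51, adjusted p = 0.0079), and the call was lost without wild-type replicate 1 (2.11), without replicate 2 (1.58) or with all wild type pooled (0.69). Wild type of set 2 had 2.01 and 3.32 CPM there, 1 library below and 1 above all ARID1A libraries. The calls at chr11:57137214-57137715 (1.20) and chr1:248100143-248100732 (0.50) were made with edgeR and not with DESeq2, and the second turned to -0.11 relative to the library medians. Without wild-type replicate 2 none of the 3 was called, at 1.58, 0.77 and 0.19.

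Set directly against each other, the SMARCA4 and ARID1A knockouts differed at 21 of 322 regions (6.52%), against 9.95% of all regions. Of these, 11 were lower and 10 higher in the SMARCA4 knockout.

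The knockouts of SMARCC1, a core scaffold subunit, and ARID2, the defining subunit of PBAF, each had 9 calls in the arrays. For SMARCC1 these were 7 lower and 2 higher, against 5.19% of all regions, 4.19% lower and 1.0% higher. For ARID2 they were 7 lower and 2 higher, against 1.79% of all regions, 1.11% lower and 0.682% higher. The 9 calls were 2.80% of the regions of the arrays. Both counts rested on single libraries: SMARCC1 had 2 and 5 without replicates 1 and 2 of its clone and 3 and 4 without wild-type replicates 1 and 2, and ARID2 had 4 and 4 without its own replicates and 5 and 4 without the wild-type ones. With all wild type pooled, ARID2 had 23 calls (7.14%), against 7.60% of all regions, so its share was no longer above that of all regions, and SMARCC1 had 15 (4.66%), against 12.0%. The split for ARID2 was 10 lower and 6 higher on the authors' normalized values, and that for SMARCC1 was 5 and 5. On those values the share was 4.97% for ARID2, against 3.06% of all regions, and 3.11% for SMARCC1, against 5.72%. These shares were not tested against each other.

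The fall at chr11:58942515-58943040 was the largest of the SMARCC1 knockout. Its libraries had 0.983 and 1.75 CPM, against 7.57 and 5.02 CPM in wild type, with a log2 change of -2.20 (SE 0.37, adjusted p = 4.1e-06). The groups were apart and the call held without any 1 library. The ARID1A knockout had 3.24, 2.72, 2.32 and 3.21 CPM at this region and the SMARCA4 knockout 3.35, 3.67, 3.03 and 2.87 CPM, all below wild type of set 1. At chr11:56980607-56981500 the SMARCC1 libraries had 3.93 and 3.49 CPM against 9.51 and 5.74 CPM (-1.05, SE 0.29, adjusted p = 0.014), lost without replicate 1 (-1.14) or 2 (-0.97) of the clone or wild-type replicate 1 (-0.63). The higher regions chr11:55482587-55483242 (1.45) and chr11:57016351-57017123 (0.88) were called in 0 and 2 of 4 such refits. The first ranged from 1.25 to 1.66 in them, and the losses of the second were without replicate 1 of the clone (0.73) and without wild-type replicate 2 (0.70).

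For ARID2 the fall at chr11:58611738-58613209 was the firmest. The ARID2 libraries had 3.27 and 4.24 CPM, against 12.2 and 8.96 CPM in wild type (-1.50, SE 0.27, adjusted p = 6.2e-05), and the call held without any 1 library. At chr11:56427113-56427739 they had 0.843 and 1.11 CPM against 5.14 and 3.47 CPM (-2.13, SE 0.47, adjusted p = 0.0027), lost without replicate 1 of the clone (-1.95) or wild-type replicate 1 (-1.81). At chr11:55269495-55270148 they had 1.58 and 0.707 CPM against 3.49 and 4.90 CPM (-1.86, SE 0.45, adjusted p = 0.0081), lost without replicate 2 of the clone (-1.39) or wild-type replicate 2 (-1.61). At chr11:58191843-58192482 they had 0.843 and 0.808 CPM against 2.72 and 2.39 CPM (-1.62, SE 0.47, adjusted p = 0.046), lost in all 4 refits without 1 library (-1.70 to -1.52) and on the authors' values (-0.98). The groups were apart in all 4, as the naming rule requires. The rise at chr11:57406622-57407330, with 42.8 and 33.2 CPM against 21.4 and 20.4 CPM (0.86, SE 0.20, adjusted p = 0.0034), was not called without replicate 1 of the clone (0.67) or either wild-type replicate (0.89 and 0.83).

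The other 18 knockouts had few calls in the arrays. ARID1B and BCL7B had 4 each, against 3.22% and 1.4% of all regions. ACTB had 3 (1.35% of all regions), BCL11A 3 (0.675%), DPF2 3 (1.79%), SMARCA2 3 (0.234%), SMARCD1 3 (1.58%), SMARCD2 3 (0.423%) and SMARCD3 3 (0.842%). BCL7A had 2 (0.467%) and PHF10 2 (0.391%). BCL11B had 1 (0.893%), BRD9 1 (0.497%), PBRM1 1 (0.423%) and SMARCC2 1 (0.0941%). BRD7, DPF1 and DPF3 had 0 with edgeR and 0 with DESeq2, against 0.695%, 0.0515% and 0.0667% of all regions, with 23, 18 and 16 regions at an unadjusted p under 0.05. Together the 18 knockouts made 37 calls, 22 lower and 15 higher, which is 0.638% of their tests in the arrays against 0.839% over all regions. With all wild type pooled the sum was 135, which is 2.33% of the tests against 2.33% over all regions, so the lower share was not seen there. Leaving out wild-type replicate 1 gave a sum of 22 and leaving out replicate 2 gave 18. Calls over all regions fell too in each knockout compared with these wild-type libraries. On the authors' normalized values, for 15 of the 18, the sum came to 59 with 23 lower and 36 higher. The share over all regions was not summed for them, so the 59 is not a result about the arrays. This sum is not like the 37, since ARID1B, BCL7B and SMARCC2, with 4, 4 and 1 of those calls, are left out. Calls over all regions also rose on these values, in each of the 15 but DPF2.

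Over the 22 knockouts 66 of the 322 regions (20.5%) were called at least once, against 29.8% of all regions, and 256 were never called. Of the 66, 42 were called in 1 knockout and 4 (6.06%) in 5 or more, against 4.77% of all regions called, and 7 (10.6%) were called in opposite directions in different knockouts, against 9.16% of all regions called. The most recurrent are described next. Since all but the set 2 clones were compared with the same wild-type libraries, a low or high value of those libraries enters every such call. The region chr11:59020776-59021554 was called in 11 knockouts, lower in 10 and higher in ACTB. The BCL7B libraries had 3.66 and 1.45 CPM (clone 10) and 2.44 and 2.26 CPM (clone 8), against 5.59 and 5.91 CPM in wild type of set 2 and 5.53 and 8.37 CPM in set 1, and this fall (-1.35, SE 0.26, adjusted p = 0.00021) was called in all 8 refits without 1 library. PHF10 had 2.70 and 1.76 CPM against 5.53 and 8.37 CPM (-1.63, SE 0.34, adjusted p = 0.0029), lost without its replicate 2 (-1.35) or wild-type replicate 2 (-1.32). BCL11A had 2.37 and 2.93 CPM (-1.38) and BCL7A 2.58 and 3.22 CPM (-1.24), called in 1 and 0 of 4 refits without 1 library, and SMARCC1 had 3.54 and 3.10 CPM (-1.05), called in 1 of 4. ACTB had 15.2 and 12.9 CPM (1.02, SE 0.29, adjusted p = 0.042), above both wild-type libraries, but no refit without 1 library called it (0.74 to 1.34).

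The region chr11:57266888-57267527 was called in 10 knockouts and moved in both directions. It was higher in SMARCA4 (0.86), ARID2 (0.80), ACTB (0.72), BCL7A (0.96) and SMARCD2 (0.85) and lower in SMARCC1 (-0.69), BCL11B (-1.27), SMARCA2 (-0.85), SMARCD1 (-1.13) and SMARCD3 (-1.60). SMARCD3 libraries had 4.22 and 7.32 CPM, against 21.4 and 13.4 CPM in wild type of set 1 (SE 0.23, adjusted p = 2.5e-07), and this call held without any 1 library. SMARCA4 libraries had 27.3 and 31.7 CPM (clone 4) and 32.7 and 36.3 CPM (clone 6), above both wild-type libraries, with no call without wild-type replicate 2 (0.57) or on the authors' values (0.37). BCL7A had 37.1 and 31.2 CPM and BCL11B 7.53 and 7.02 CPM, and these calls were lost without wild-type replicate 2 (0.67) or replicate 1 of the BCL7A clone (0.83), and without wild-type replicate 1 (-0.88). Wild type of set 2 had 10.7 and 14.3 CPM.

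The region chr11:58611738-58613209 was lower in several knockouts and higher in ARID1B. Besides SMARCA4 and ARID2 it was lower in SMARCD2 with 2.73 and 4.23 CPM (-1.61, SE 0.27, adjusted p = 3.8e-05), PHF10 with 4.05 and 5.04 CPM (-1.22, SE 0.26, adjusted p = 0.0037) and PBRM1 with 5.32 and 5.56 CPM (-0.97, SE 0.25, adjusted p = 0.048), against 12.2 and 8.96 CPM in wild type of set 1. The PBRM1 call was lost in all 4 refits without 1 library (-1.17 to -0.72) and that of SMARCD2 without its replicate 1 (-1.33) or wild-type replicate 1 (-1.36). BRD7 had 7.26 and 5.86 CPM (-0.71) and ARID1A 7.93, 8.16, 13.7 and 10.2 CPM (-0.12), and neither was called. ARID1B was higher (0.84, SE 0.16, adjusted p = 6.8e-05), with 33.6 and 27.6 CPM in clone 7 against set 1 and 35.4 and 31.5 CPM in clone 5 against 31.1 and 28.5 CPM in set 2 wild type. Wild type did not overlap between the sets here, and clone 5 stood close to its own wild type.

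The last recurrent regions were lower in each knockout that was called. At chr11:56427113-56427739, besides ARID2, SMARCA4 had 1.98, 1.56, 2.69 and 1.88 CPM (-1.11), ARID1B 1.23, 1.67, 1.17 and 0.563 CPM (-1.49), SMARCC1 1.47 and 1.94 CPM (-1.34), BRD9 1.03 and 1.52 CPM (-1.75) and SMARCA2 1.90 and 0.630 CPM (-1.83). Wild type had 5.14 and 3.47 CPM in set 1 and 1.72 and 2.88 CPM in set 2, so the set 2 wild type overlapped the knockouts of set 1. The SMARCC1 and BRD9 calls were lost in every refit without 1 library (-1.58 to -1.02 and -2.05 to -1.43) and in SMARCA2 1 of 4 refits kept the call, the one without replicate 1 of the clone. The ARID1B call was lost without replicate 2 of clone 7 (-1.27) or wild-type replicate 6 (-1.28). The region chr11:55269495-55270148 was lower in SMARCA4 (-1.20), ARID1A (-1.20) and ARID2 (-1.86).

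**Figure D4:**
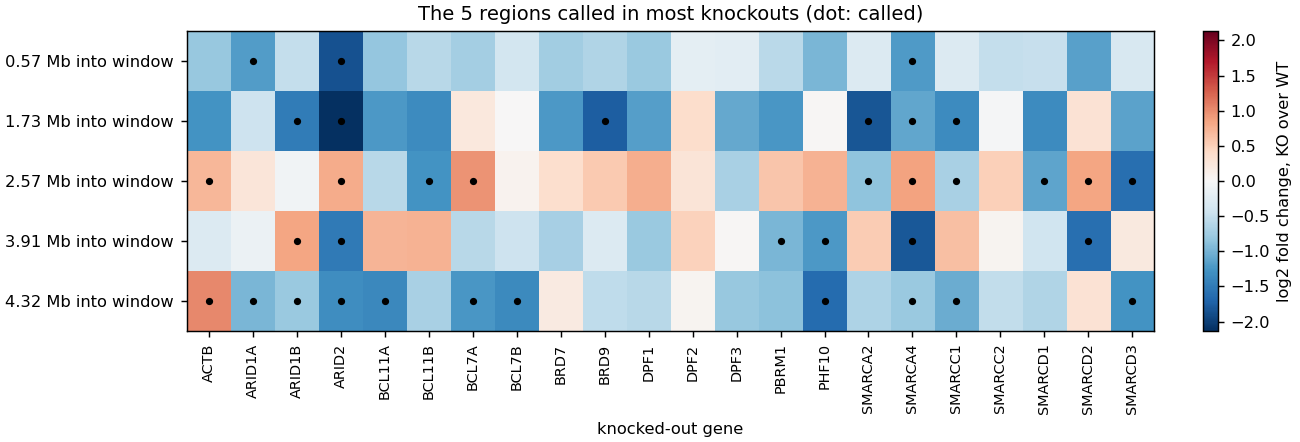
Log2 fold change of each knockout over wild type (colour) for the 5 array regions called in most knockouts, with a dot where the region was called. The middle row, chr11:57266888-57267527, is higher in 5 knockouts and lower in 5, where the rise in SMARCA4 was 0.01 and not called relative to the library medians of the authors' values.

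Other named regions of these knockouts were mostly weak. At chr11:49246561-49247455 of the pericentromeric array SMARCD2 had 8.57 and 7.77 CPM against 1.75 and 2.63 CPM in wild type (1.91, SE 0.39, adjusted p = 0.0023) and DPF2 had 7.80 and 4.58 CPM (1.51, SE 0.40, adjusted p = 0.02). Both groups lay above wild type, but the SMARCD2 call was lost without its replicate 1 (1.84) or wild-type replicate 1 (1.63), and that of DPF2 without its replicate 1 (1.08), wild-type replicate 1 (1.23) or wild-type replicate 2 (1.81). At chr11:49276597-49277273 SMARCC2 had 5.80 and 5.39 CPM against 0.860 and 1.01 CPM in wild type of set 2 (2.56, SE 0.55, adjusted p = 0.014), lost in all 4 refits without 1 library (2.45 to 2.68). BCL7B was higher at the same region, with 3.66 and 1.99 CPM in clone 10 and 4.79 and 3.07 CPM in clone 8, against 0.860 and 1.01 CPM in set 2 wild type and 1.07 and 1.55 CPM in set 1 (1.59, SE 0.39, adjusted p = 0.011), and 4 of 8 refits without 1 library called it (1.33 to 1.77 over the 8). BCL11A had 8.31 and 6.05 CPM at chr11:57496832-57497489 against 2.04 and 2.51 CPM (1.66, SE 0.39, adjusted p = 0.011), lost without its replicate 1 (1.41) or either wild-type replicate (1.51 and 1.81).

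The other named calls were lost in most refits without 1 library. DPF2 had 0.550 and 1.38 CPM at chr11:56923601-56924102 against 3.69 and 2.87 CPM in wild type (-1.74, SE 0.50, adjusted p = 0.039), lost without its replicate 1 (-1.24) or wild-type replicate 1 (-1.55) or 2 (-1.91). SMARCD1 had 1.46 and 0.868 CPM at chr1:247811053-247811697 against 4.08 and 2.51 CPM (-1.51, SE 0.43, adjusted p = 0.045), lost without either of its replicates (-1.92 and -1.18) or wild-type replicate 1 (-1.10). Both were also lost on the authors' values. SMARCA2 had 11.7 and 13.3 CPM at chr1:247533518-247534637 against 6.41 and 6.22 CPM (0.99, SE 0.25, adjusted p = 0.0499), lost in all 4 refits (0.89 to 1.08). The groups did not overlap in these regions.

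Wild-type libraries of set 2 and set 1 differed in the arrays with no gene removed. Of 322 regions 17 (5.28%) were called, 6 lower and 11 higher in set 2, against 5.83% of all regions. The count was 9 and 11 without replicates 5 and 6 and 8 and 6 without replicates 1 and 2. The named rise was at chr1:247961865-247962493, with 5.45 and 7.64 CPM in set 2 against 1.75 and 1.79 CPM in set 1, and was lost without replicate 6 (1.62). The named fall was at chr11:56026922-56027423, with 0.716 and 0.865 CPM in set 2 against 3.59 and 2.39 CPM in set 1 (-1.91, SE 0.60, adjusted p = 0.035), and was lost in all 4 refits without 1 library (-2.16 to -1.58). Clones of 1 gene that lay in different sets also differed. Clone 7 of ARID1B, in set 1, had 17 calls (6 lower, 11 higher), against 9.22% of all regions, and clone 5, in set 2, had 0 with edgeR, against 0.275%, with 19 regions at an unadjusted p under 0.05, and no other tool was run on this clone alone. Clone 8 of BCL7B, in set 1, had 15 (3 lower, 12 higher), against 4.83%, and clone 10, in set 2, had 5 (4 lower, 1 higher), against 0.743%. Clone and set cannot be told apart there. A single array region, chr11:57959566-57960067, was nearly empty in a clone, with 3 reads in both libraries of BCL7B clone 10 against 44 in wild type of set 2.

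Some array regions fell when SMARCA4 was knocked down in wild-type cells. Of 321 regions tested 13 (4.05%) were called, 12 lower and 1 higher, against 5.73% of all regions, 4.96% lower and 0.773% higher. DESeq2 called 6 of the regions. With the replicate number added to the fit as a block, 25 were called, 24 lower and 1 higher, and 14710 of all 145617 regions. Without replicate 1 of the knockdown 3 were called, and without either control replicate 6. At chr1:248784826-248785643 the knockdown libraries had 2.29 and 3.47 CPM, against 10.8 and 16.5 CPM with control knockdown (-2.26, SE 0.38, adjusted p = 4.5e-05). At chr1:247961865-247962493 they had 1.75 and 1.49 CPM against 6.63 and 8.74 CPM (-2.22, SE 0.49, adjusted p = 0.0015). Both chromosome 1 calls held without any 1 library, and the groups did not overlap. The region chr1:247961865-247962493 was also the named rise between the wild-type sets. Wild type of set 1, with no gene removed, was about as low there as this knockdown, and wild type of set 2 was higher. At chr11:58549382-58549948 they had 0.546 and 0.992 CPM against 4.49 and 5.02 CPM (-2.66, SE 0.61, adjusted p = 0.0025), lost without replicate 1 of the knockdown (-2.24). The weak region chr11:49526650-49527182 had 0.437 and 0.827 CPM against 3.90 and 3.22 CPM (-2.53, SE 0.70, adjusted p = 0.016), a call that no refit without 1 library kept. The single rise, at chr11:57417143-57417843, had 9.82 and 4.96 CPM against 2.93 and 3.73 CPM (1.19, SE 0.38, adjusted p = 0.046), and was not called with DESeq2 (1.17), without either control replicate (1.01 and 1.36) or without replicate 1 of the knockdown (0.58).

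Double knockdown of SMARCA4 and ARID2 gave 12 calls (3.74%), all lower, against 4.62% of all regions, 4.0% lower and 0.618% higher. The count was 1 and 2 without replicates 1 and 2 of the double knockdown and 4 and 2 without replicates 1 and 2 of the control. At chr1:247539850-247540484 the libraries had 3.34 and 5.96 CPM against 16.6 and 16.1 CPM with control knockdown (-1.84, SE 0.37, adjusted p = 0.00075), lost without replicate 1 of the double knockdown (-1.45). With SMARCA4 knockdown alone the region had 5.13 and 5.13 CPM (-1.67, SE 0.37, adjusted p = 0.0016). At chr11:124063494-124064051 the double knockdown had 1.56 and 0.471 CPM against 3.80 and 5.14 CPM (-2.04, SE 0.54, adjusted p = 0.013), lost without replicate 2 of either group (-1.81 and -1.51). At chr11:58253551-58254304 it had 2.45 and 1.73 CPM against 8.39 and 6.30 CPM (-1.79, SE 0.42, adjusted p = 0.0038), lost without either of its replicates (-2.09 and -1.59) or replicate 1 of the control (-1.56). At chr11:123648284-123648801 it had 2.00 and 2.51 CPM against 6.83 and 7.97 CPM (-1.72, SE 0.45, adjusted p = 0.012), lost in all 4 refits without 1 library (-1.88 to -1.55). The double knockdown libraries lay below the control libraries in all 4 regions, as the naming rule requires. The comparisons with control knockdown share its 2 libraries. With the replicate block the double knockdown had 24 calls, 21 lower and 3 higher, and 11990 of all 145617 regions were called.

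ARID2 knockdown was not seen to change the arrays. In wild-type cells 0 regions were called with edgeR and 0 with DESeq2, against 0.0% of all regions, and 13 had an unadjusted p under 0.05. In SMARCA4 knockout cells the counts were also 0 and 0, against 0.0%, with 8 such regions. SMARCA4 knockdown in ARID2 knockout cells called 0 and 0, against 0.195%, with 17 such regions. With the replicate block this comparison had 4 calls, all lower, and 4251 of all 145617 regions were called. Neither knockdown was called as acting differently in knockout and wild-type cells: 0 with edgeR and 0 with DESeq2, against 0.0% of all regions in each, with 18 (SMARCA4 knockdown) and 6 (ARID2 knockdown) at an unadjusted p under 0.05. With 2 libraries per group these counts do not show that values did not differ.

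ARID2 knockout cells with control knockdown had 2 calls, both lower, against 0.418% of all regions, and 0 in each refit without 1 library. At chr11:123985822-123986466 the ARID2 knockout had 4.27 and 5.01 CPM against 12.1 and 14.02 CPM in wild type (-1.49, SE 0.35, adjusted p = 0.024). At chr11:49229436-49230381 it had 5.01 and 5.64 CPM against 11.6 and 17.0 CPM (-1.42, SE 0.36, adjusted p = 0.044). The second was also lower in the knockout table, with 2.85 and 2.83 CPM against 5.92 and 8.49 CPM (-1.33, SE 0.32, adjusted p = 0.0065), and was the only region called for ARID2 in both tables. The groups did not overlap in any of these pairs. With the replicate block the ARID2 knockout with control knockdown had 15 calls, 12 lower and 3 higher. Of all 145617 regions 3629 were called there.

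The SMARCA4 knockout was measured again in the knockdown table, in libraries that the knockout table does not share. Its clone is not labelled there and may be one of the knockout table. Loss of the gene and other changes of a clone therefore cannot be told apart by this comparison. With control knockdown, 24 of 321 regions (7.48%) were called, 20 lower and 4 higher, against 9.75% of all regions, 8.26% lower and 1.49% higher. Without replicates 1 and 2 of the knockout 8 and 10 were called, and without replicates 1 and 2 of wild type 11 and 12. Of the 20 lower regions 6 were called in every such refit. Outside the dense Mb of the long arm 17 of 243 were called, all lower. Both fits called 15 of the regions in the same direction, 13 lower and 2 higher, which is 31.9% of the 47 in the knockout table and 62.5% of the 24 in the knockdown table. Over all regions the same shares were 31.7% and 71.1%. Of the 47 regions 38 (80.9%) had the same sign in the knockdown table, against 90.6% over all regions. Across the 321 regions the log2 fold changes correlated at r = 0.53, against 0.64 across all regions, and regions are not independent replicates.

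The strongest losses of the knockout table stood out here too. At chr11:55198484-55199439 the SMARCA4 knockout had 2.12 and 2.56 CPM against 40.0 and 39.0 CPM in wild type, both with control knockdown, with a log2 change of -4.07 (SE 0.45, adjusted p = 5.3e-10) that was called in each refit without 1 library. In wild-type cells the region had 22.7 and 12.4 CPM with SMARCA4 knockdown (-1.16, adjusted p = 0.0499), 15.7 and 13.97 CPM with double knockdown (-1.41, adjusted p = 0.015) and 46.3 and 31.3 CPM with ARID2 knockdown. The libraries of SMARCA4 knockdown and of double knockdown lay between those of the knockout and of the control without overlap. At the neighbour chr11:55167974-55169349 the knockout had 1.25 and 3.10 CPM against 18.5 and 19.4 CPM (-3.13, SE 0.45, adjusted p = 2.5e-07), and SMARCA4 knockdown had 21.2 and 17.4 CPM (0.03, SE 0.37, adjusted p = 0.98). The difference between these neighbours under knockdown was not tested.

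More regions of the knockout table were called again. At chr11:58611738-58613209 the SMARCA4 knockout with control knockdown had 3.49 and 5.53 CPM against 25.1 and 29.2 CPM in wild type (-2.59, SE 0.40, adjusted p = 1.2e-06), and ARID2 knockout cells had 9.58 and 10.3 CPM (-1.44, adjusted p = 0.051), apart from wild type but not called. At chr1:248784826-248785643 the SMARCA4 knockout had 2.75 and 3.77 CPM against 10.8 and 16.5 CPM (-2.06, SE 0.38, adjusted p = 3.5e-05), and in the knockout libraries of the other table it had 3.47, 2.56, 4.60 and 2.10 CPM against 7.08 and 5.62 CPM (-1.01, SE 0.28, adjusted p = 0.0031). The 2 regions called higher in both tables were chr11:57417143-57417843, with 9.24 and 6.60 CPM against 2.93 and 3.73 CPM (1.26, SE 0.38, adjusted p = 0.019), and chr11:57266888-57267527, with 30.7 and 22.0 CPM against 10.2 and 11.1 CPM (1.31, SE 0.37, adjusted p = 0.01). The named rise of this comparison, at chr11:56911630-56912211, had 4.99 and 5.26 CPM against 1.27 and 2.44 CPM (1.49, SE 0.45, adjusted p = 0.02) and was lost without either knockout replicate (1.53 and 1.45) or wild-type replicate 1 (1.06). SMARCA4 knockdown and SMARCA4 knockout, each in its own table, shared 6 calls in the same direction, 12.8% of the 47 and 46.2% of the 13, where the shares over all regions were 17.0% and 65.0%.

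**Figure D5:**
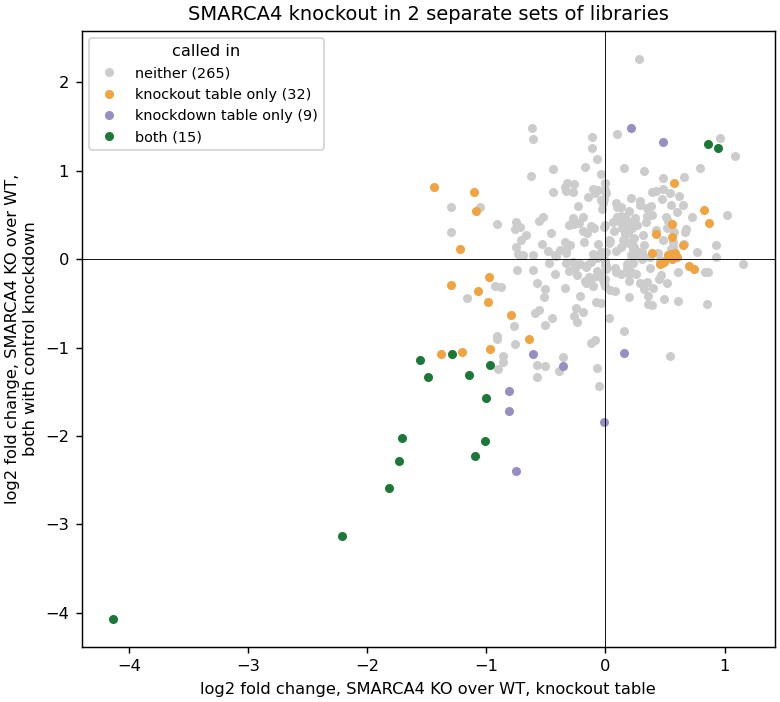
Log2 fold change of each array region in the SMARCA4 knockout over wild type in the knockout table (horizontal) and, with control knockdown, in the knockdown table (vertical), coloured by where it was called. The 15 regions called in both have the same sign, and 13 of them lie in the lower left.

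Summed over whole windows, few tests of the arrays were called. Counts were summed per window and per 1 Mb bin of the rest of the genome and tested in the same way. Of 150 window tests of whole groups 5 were called, and the share over all bins and windows was not summed for these comparisons. Where no window was called, the bins and windows called ranged from 0% (ARID2 knockdown) to 22.4% (SMARCA4 knockdown) and 35.6% (ARID1A knockout). In the SMARCA4 knockout the pericentromeric array was lower (-0.45, SE 0.10, adjusted p = 0.00017), against 55.5% of bins and windows called, with scaled sums of 52.5 and 51.5 CPM in clone 4 and 53.7 and 49.3 CPM in clone 6 against 68.3 and 73.6 CPM in wild type. The groups did not overlap, but over its regions of below-median accessibility the array was not called (-0.33), and in the knockdown table it had 74.9 and 76.1 CPM against 64.8 and 84.5 CPM (0.02, adjusted p = 0.97). The same array was lower in ARID1B (-0.26, SE 0.08, adjusted p = 0.023), against 18.2%, and higher in BCL7B (0.32, SE 0.08, adjusted p = 0.0054), against 9.91%. By clone, the ARID1B value was -0.37 in clone 7 of set 1 (adjusted p = 0.0092) and -0.15 in clone 5 of set 2 (adjusted p = 0.80), and the BCL7B value 0.49 in clone 8 of set 1 (adjusted p = 0.0006) and 0.15 in clone 10 of set 2 (adjusted p = 0.50). Of 40 window tests of single clones 7 were called, all in set 1 clones: this array in both SMARCA4 clones (-0.45 and -0.46), ARID1B clone 7 and BCL7B clone 8, the chromosome 14 array in ARID1B clone 7 (-0.50), and the chromosome 1 (0.20) and distal (0.17) arrays in BCL7B clone 8. Many bins and windows were called in these clones: 54.1% and 43.9% in SMARCA4 clones 4 and 6, 40.8% in ARID1B clone 7 and 43.5% in BCL7B clone 8. The shares were 33.5% and 22.3% in ARID1A clones 3 and 10, which had no called window. In the set 2 clones they were 2.13% (ARID1B clone 5) and 3.18% (BCL7B clone 10). Between wild type of set 2 and set 1 the chromosome 1 array was 0.32 higher, with 333 and 345 CPM in set 2 against 283 and 259.9 CPM in set 1, and the distal array 0.20 higher, where 43.4% of bins and windows were called.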

How the data were processed

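ATAC-seq of HAP1 was analysed from 2 deposited count tables, in which the authors gave whole-number counts of reads per region and library with no scaling for depth, and from the authors' deposited table of normalized accessibility, taken as log2 values from its slope against log2 CPM, whose method is not given in the sources used here. Per the submitters' processing notes, the tools were Bowtie2 2.2.4, Picard 1.118 and MACS2 2.1.1.20160309 and the build was hg19, and whether starts count from 0 or 1 is not stated. Left out were 2 table columns with no matching label, and wild-type replicates 3 and 4 were not analysed here.

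Counts were tested with the 2-sided quasi-likelihood test of edgeR 4.0.16 in R 4.3.3 with TMM scaling, the default filter on low counts and Benjamini-Hochberg adjustment over all regions. Each clone and each wild-type set had its own coefficient in the knockout fit, which left 28 residual degrees of freedom, and 8 groups left 8 in the knockdown fit. All 322 array regions passed the filter of the first fit and 321 that of the second. A gene with a pair of clones was tested as their mean. Summed counts were tested over 1 Mb bins of the genome and the windows. With 2 libraries a group, an exact permutation test of a single value cannot go below p = 0.333, so only fits across all regions were used. Refits without 1 library kept the dispersion trend and scaling of the full fit, and a lone library was taken to vary like the other groups. The steps were tested on simulated counts.

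Regions named are the 2 most accessible of each window, the largest called changes with groups that do not overlap and at least 1 CPM in the higher group (up to 8 per direction for SMARCA4 and ARID1A, up to 4 for SMARCC1, ARID2, SMARCA4 knockdown and double knockdown, 1 for other comparisons), the 5 called in most knockouts and 3 called in opposite directions. The windows and this rule were chosen with earlier results of these data known. Alternatives were RLE scaling, no filter, DESeq2, a replicate block, pooled wild type, limma on the authors' values, any overlap with a window, 500 kb bins and each library left out, and limma relative to each library's median was chosen after seeing the data.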

Additional observations from a re-analysis of the deposited data

Results flagged for a closer look

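In groups of 4 libraries of 1 gene, 11 of 212 region-by-gene groups had a library far from the others, and chance gives about 1 in 20 groups.

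In the SMARCA4 knockout, replicate 1 of clone 4 had 3.22 CPM at chr11:55198484-55199439, where the others had 1.91 to 2.00 CPM, and 1.86 CPM at chr11:58253551-58254304, where the others had 2.32 to 2.36 CPM. Replicate 1 of clone 6 had 4.71 CPM at chr11:58611738-58613209, where the others had 2.34 to 2.73 CPM, and replicate 2 of clone 6 had 1.88 CPM at chr11:55121131-55121710, where the others had 0.496 to 0.561 CPM. All 4 regions were called lower in every refit without 1 library. In the ARID1A knockout, replicate 1 of clone 10 had 7.26 CPM at chr11:57412167-57412745, where the others had 10.6 to 11.1 CPM.

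In the ARID1B knockout, replicate 2 of clone 5 had 3.35 CPM at chr14:20737262-20737944, against 1.06 to 1.31 CPM in the others, and 28.5 CPM at chr11:55167974-55169349, against 17.9 to 19.5 CPM, and replicate 1 of clone 7 had 3.82 CPM at chr11:58253551-58254304, against 5.97 to 6.36 CPM. In the BCL7B knockout, replicate 2 of clone 10 had 6.16 CPM at chr11:49526650-49527182, against 2.44 to 2.79 CPM, and replicate 1 of clone 10 had 3.66 CPM at chr11:124063494-124064051, against 4.17 to 4.25 CPM. Replicate 1 of BCL7B clone 8 had 15.2 CPM at chr1:248784826-248785643, against 9.97 to 10.6 CPM. The clones of these genes lie in different library sets, so clone and set cannot be told apart there.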

How the results depend on the processing

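Counts of called array regions were compared with 47 (SMARCA4), 18 (ARID1A), 9 (SMARCC1), 9 (ARID2) and 37 (the 18 other knockouts together). Pooling all wild type gave 78, 40, 15, 23 and 135. The authors' values gave 36 for ARID1A, 16 for ARID2 and 59 for 15 of the 18 others. Relative to library medians they gave 32 for ARID1A, 15 for SMARCC1, 17 for ARID2 and 54 for the same 15. These 15 leave out ARID1B, BCL7B and SMARCC2, which are part of the 37. Counts over all regions shifted under these settings too, so the shifts are not a result about the arrays alone. Leaving out 1 library gave 20 to 51 (SMARCA4), 12 to 20 (ARID1A), 2 to 5 (SMARCC1), 4 to 5 (ARID2), 18 to 42 (others), 6 to 11 (wild-type sets), 3 to 9 (SMARCA4 knockdown), 1 to 4 (double knockdown), 8 to 12 (SMARCA4 knockout with control knockdown), 0 to 0 (ARID2 knockout with control knockdown) and 3 to 6 of the window tests. Fewer libraries enter these refits by construction, and the cause of the other shifts was not tested. DESeq2 gave 6 for SMARCA4 knockdown, and windows summed over regions below median accessibility gave 1 call in place of 5.

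With the replicate number as a replicate block, the counts were 25 (SMARCA4 knockdown), 24 (double knockdown), 4 (SMARCA4 knockdown in ARID2 knockout cells), 15 (ARID2 knockout with control knockdown) and 12 (window tests), against 13, 12, 0, 2 and 5. Calls over all 145617 regions rose in these region tests too, to 14710, 11990, 4251 and 3629, from 8341, 6731, 284 and 609. The labels tie no number to a shared culture, and the deviations of same-numbered libraries had a median correlation of 0.02 in set 1, with 21 of 276 pairs of groups over 0.1, and 0.23 in the knockdown table, with 26 of 28 over 0.1.

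Of 74 results on named regions, RLE scaling kept 72, no filter 73, the block 74, DESeq2 68 of 71 and pooled wild type 53 of 60, and the authors' values 36 of 56. Relative to library medians 37 of 56 were kept and 4 reversed: chr1:248100143-248100732 in ARID1A (-0.11) and SMARCA4 (-0.22), chr11:58938836-58939870 (-0.0019) and chr11:57412167-57412745 (-0.019) in SMARCA4. Of 362 refits without 1 library, 209 kept the call. With a median of 14 to 37 reads per region and 2 libraries a group, depth limits what can be detected in weak regions.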
